A study of Mus musculus with 8 samples.

Results

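The genes described here reduce iron and carry divalent metal ions into the cytosol. They comprise 7 genes in all: the metalloreductases Steap2, Steap3 and Steap4, the cytochrome b reductase Cybrd1, the divalent metal transporter Slc11a2 (Dmt1), and the Zip transporters Slc39a14 (Zip14) and Slc39a8 (Zip8). Each was found by its gene symbol, on a single row of a table of 56465 features, of which 25972 carry a symbol. All 7 passed the minimum mean of 10 normalized reads used for testing, which left 19798 features. Normalized reads are read counts divided by 1 size factor per library, as the authors deposited them.

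RNA was sequenced from 4 detached retinas of TG mice, which express human transferrin (replicates 2, 5, 6 and 8), and from 4 detached retinas of WT mice (replicates 3, 4, 5 and 7). The TG group held 2 males and 2 females, with 2 left and 2 right eyes. The WT group held 3 males and 1 female, with 1 left and 3 right eyes. All mice carry the strain label C57Bl/6J, and every retina in both groups had been detached by 10 µl of sodium hyaluronate injected beneath it 4 days before collection, so no attached retina enters the comparison. The sources used here do not give the promoter of the transgene, the cells that express it, the number of founder lines or the ages of the mice. No label ties each retina to a mouse of its own. The p-values therefore rest on the spread of these 8 libraries, part of which may be technical.

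Plasma iron travels as ferric iron bound to transferrin and enters cells in endosomes with the transferrin receptor. There it is released, reduced to ferrous iron by metalloreductases of the Steap family, and moved into the cytosol by Dmt1 or a Zip transporter. Ferric iron that is not bound to transferrin can be reduced at the cell surface, by Cybrd1 among others, and imported by Zip14 and Zip8, which also carry zinc and manganese. In the retina, iron is needed for the visual cycle and for membrane synthesis, and its excess is known to damage photoreceptors and pigment epithelium.

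Libraries held 61535690 to 70540242 counted reads in TG and 68433927 to 75866423 in WT, and the 7 genes took between 26 and 763 reads each in a library. Rod genes summed to 2742703 to 4152421 normalized reads in TG and 3117635 to 3572169 in WT, as a retina should show. WT 3 stood apart. Its oligodendrocyte genes summed to 10311 normalized reads, against 227 to 492 in the other 7 libraries. Its 9 pigment epithelium genes summed to 92422, against 6612 to 41826 in TG and 4022 to 9752 in the other WT libraries. Lens genes were highest in TG 6 and WT 3, at 19015 in TG 6 and 23011 in WT 3. WT 4 also stood apart, with a neutrophil sum of 1971, against 42.9 to 555 elsewhere, and a red blood cell sum of 2635, against 14470.0 to 39044 elsewhere. Lens genes lay higher in TG for 5 of 5, endothelium and pericyte genes lay lower in TG for 8 of 8, and the neutrophil gene Ly6g was at 0 in every library, with 0 genes of any list past the adjusted threshold. In whole retina, fewer cells of a type and less RNA per cell cannot be told apart.

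None of the 7 genes differed between TG and WT retinas beyond the spread of the libraries. Of the 7, 0 passed at an adjusted p under 0.05 (limma with Benjamini-Hochberg adjustment over all features), where 0.0101% of all tested features did. At an unadjusted p under 0.05, 0 of 7 were reached by limma, by edgeR or by DESeq2, where limma reached 4.64% of all features. The TG and WT ranges overlapped for all 7, and they did not overlap for 2.53% of features. Log2 fold changes were negative for 6 members and positive for Steap4 alone, with a median of -0.085, beside a median of -0.017 and a share above 0 of 47.8% for all features. The fold changes with their intervals show how wide the margin is: the 95% intervals allow a TG level between 0.570 and 1.14 times the WT level for Slc11a2, the most tightly bounded gene, and between 0.547 and 3.67 times for Steap4.

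**Figure D1:**
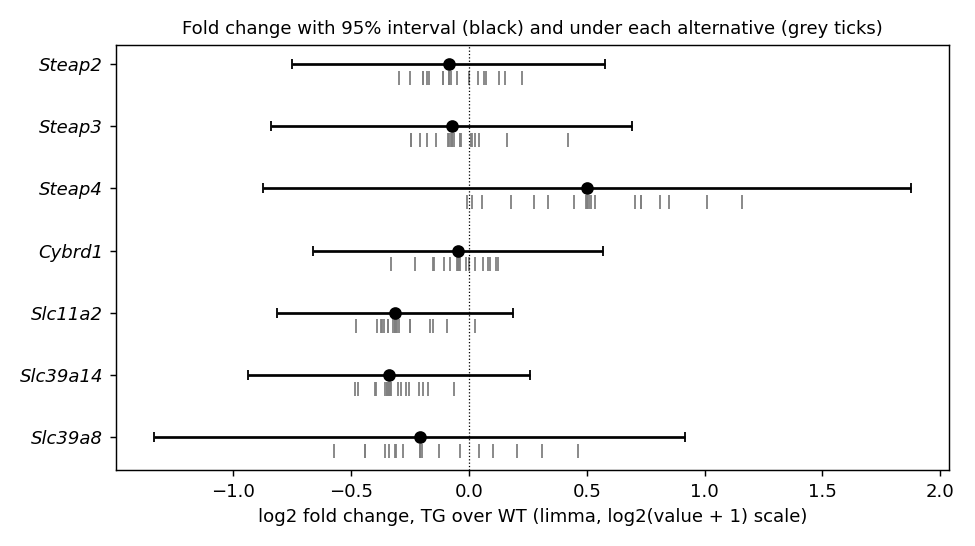
Log2 fold change of TG over WT for the 7 genes on the horizontal axis (limma, log2(value + 1) scale). Black points and bars are the estimate and its 95% interval, and grey ticks are the estimates under each alternative processing or with a library left out. Every interval spans 0, and the interval of Steap4 is the widest, from -0.87 to 1.88.

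Levels can be compared between genes only per length, here as normalized reads per kilobase of exon (GENCODE M21, GRCm38, all exons of a gene merged). Slc11a2 was highest by the average of both group means, with 69.8 ± 10.8 in TG and 88.5 ± 24.4 in WT (SD, n = 4 each). Steap4 followed with 96.2 ± 77.8 in TG and 58.0 ± 36.5 in WT. Over all 8 libraries Cybrd1 ran from 32.5 to 63.7 and Steap2 from 21.8 to 53.2. Steap3, from 12.6 to 29.7, and Slc39a14, from 14.6 to 29.8, lay close together. Slc39a8 was lowest, from 3.59 to 18.6. The ranges over 8 libraries overlapped between every pair of neighbours in this order. Even so, Slc39a14 exceeded Slc39a8 in 8 of 8 libraries, while Steap3 exceeded Slc39a14 in 5 of 8 and Slc11a2 exceeded Steap4 in 5 of 8. Merging exons counts untranslated parts that a given transcript may lack, so the order carries that uncertainty.

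**Figure D2:**
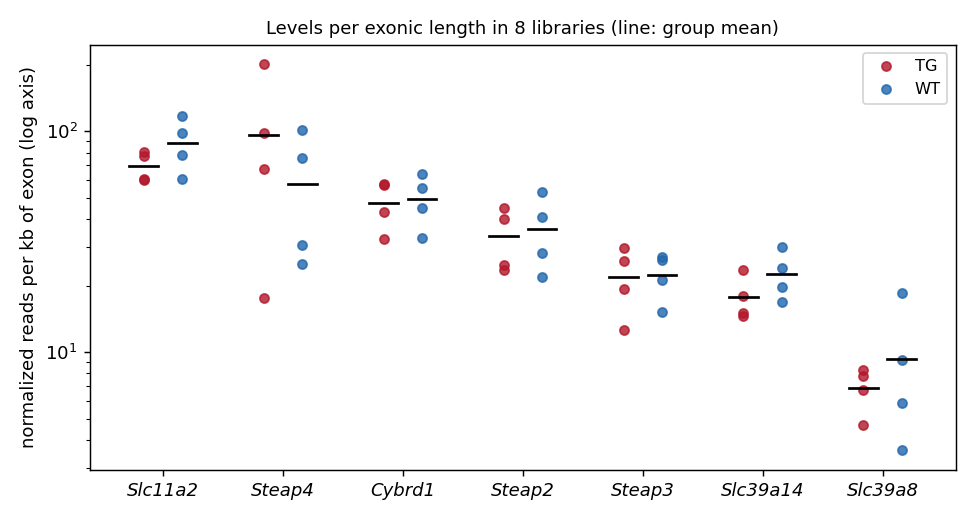
Normalized reads per kilobase of exon on a log axis for the 7 genes, ordered from high to low, with each library as a point, TG left of WT, and group means as lines. By the average of both group means, Slc11a2 leads and Slc39a8 closes the order. In TG alone the mean of Steap4 (96.2) lies above that of Slc11a2 (69.8). The 4 TG points of Steap4 run from 17.6 to 202.

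Among the reductases, Steap4 varied most. Its product reduces iron and copper at the cell surface and in endosomes and is known to be induced by inflammatory cytokines in other tissues. It had 212, 637, 309.98 and 55.6 normalized reads in TG 2, 5, 6 and 8, against 78.8, 238, 319 and 96.5 in WT 3, 4, 5 and 7. The TG group thus held both the highest and the lowest library, 11.5 times apart, and enclosed all 4 WT values. The means were 304 ± 246 in TG and 183 ± 115 in WT (SD, n = 4 each), and the log2 fold change was 0.50 ± 0.64 (SE), with an adjusted p of 0.93 by limma. It rested on single libraries, being -0.0076 without TG 5, 1.16 without TG 8, 0.18 without WT 3, 0.28 without WT 7, 0.85 without WT 5 and 0.015 without both WT 3 and TG 6. It was 0.81 with sex as a term, 1.01 with males only and 0.057 with right eyes only. Its residual standard deviation, 1.24 on the log2 scale, was above that of 98.3% of the 2467 features with a mean within 1.5 times its own.

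The promoter of Steap4 is shown because this gene had the widest spread, with the motifs of cytokine-driven factors in capitals. The sequence is from RefSeq (GRCm38.p6), chr5:7960222-7960521, plus strand, from 250 bases before to 50 after the annotated start. Promoters were present for 5 of the 7 genes, 11 in all.
Steap4 promoter: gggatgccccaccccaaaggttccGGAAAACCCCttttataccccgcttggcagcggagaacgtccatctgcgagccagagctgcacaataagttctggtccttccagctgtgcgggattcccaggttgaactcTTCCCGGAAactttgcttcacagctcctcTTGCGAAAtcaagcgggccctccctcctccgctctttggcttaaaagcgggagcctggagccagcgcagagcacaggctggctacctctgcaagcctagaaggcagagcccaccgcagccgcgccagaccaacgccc
On both strands, it held 1 match each to the run of GGG, NN and TTTCC (NF-kappaB type), TTCNNNGAA (STAT type) and TTGCNNAA (C/EBP type), none overlapping another. Of 32851 promoters of the same length, 1.6% held the first of these motifs, 8.3% the second and 10.8% the third, and 6 promoters (0.018%) held all of them. The same search found a STAT match in 1 of 3 Steap2 promoters and a C/EBP match in 1 of 4 Steap3 promoters, and 0 NF-kappaB matches outside Steap4. The antioxidant motif TGACNNNGC, the metal motif TGCNCNC and the hypoxia motif ACGTG were searched too and had 0 matches in the Steap4 promoter. A match describes letters in this window and does not show that a factor binds there.

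The libraries at the extremes of Steap4 were also at the extremes of several cytokine response genes. Among 14 tested genes of that list, TG 5 was the highest library for 5 and TG 8 alone the lowest for 8. Over all tested features TG 5 was highest for 9.65% and TG 8 lowest for 14.8%. TG 5 was highest and TG 8 lowest together for 4 of the 14, Stat3, Socs3, Cebpb and Cebpd, against 2.33% of all features. This count was chosen after the values were seen. Socs3, the feedback inhibitor of cytokine signalling, had 1426, 3705, 1219 and 535 normalized reads in TG 2, 5, 6 and 8, against 1362, 1319, 1371 and 807 in WT 3, 4, 5 and 7. Lcn2, an acute phase gene that binds iron-carrying siderophores, had 6233, 16450, 26689 and 1015 in the TG libraries, against 2508, 7167, 20593 and 3314 in the WT libraries. Of the 14 genes, 8 lay higher and 6 lower in TG, with 0 past the adjusted threshold (limma). Markers of other cells were also extreme in these libraries. All 6 microglia and macrophage markers lay higher in TG, none past the threshold, and their sum ran from 7234 to 15029 normalized reads in TG and from 6179.5 to 10782 in WT, with TG 5 highest. All 4 fibroblast markers lay higher in TG, none past the threshold, and their sum ran from 98.5 to 1107 in TG and from 180 to 740.0 in WT, with TG 8 lowest. TG 5 was the lowest library for the rod sum (2742703 normalized reads) and for the cone sum (34937). TG 8 was the lowest for the neutrophil sum (42.9). The part of any of these cells in the Steap4 values was not tested.

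**Figure D3:**
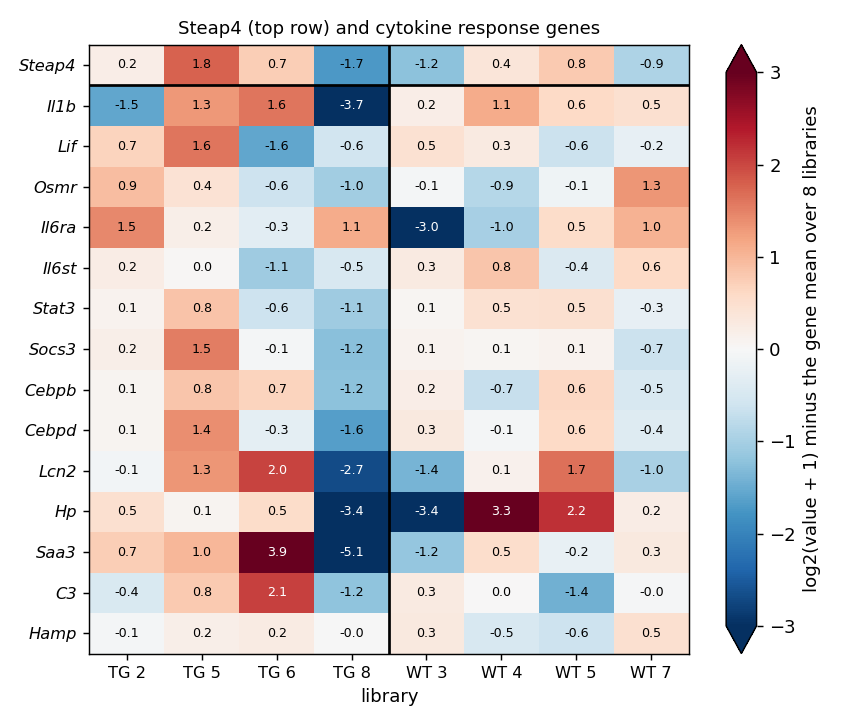
Steap4 (top row) and the 14 tested cytokine response genes, as log2(value + 1) minus each gene's mean over the 8 libraries, with TG libraries left of WT libraries. Red is above and blue below the mean. TG 8 is blue for Steap4 and for most genes of the list. TG 5 is red for Steap4 and for genes of the list that include Lif, Stat3, Socs3, Cebpb, Cebpd and Lcn2.

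Steap3, the main reductase of transferrin endosomes in red cell precursors, varied 2.35 times over the libraries. It had 147, 169.95, 109.9 and 72.2 normalized reads in TG 2, 5, 6 and 8, against 87.0, 122, 154 and 149 in WT 3, 4, 5 and 7. Both groups spread over much the same range, with a log2 fold change of -0.073 ± 0.355 (SE) and an adjusted p of 0.98 by limma. TG 8 was lowest, and without it the fold change turned to 0.16.

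Steap2, a reductase of iron and copper found at the Golgi and the cell surface, lies 2.30 Mb from Steap4 on chromosome 5 (5664829 to 5694569, mm10; Steap4 at 7960455 to 7982213). It had 548, 286, 300.1 and 488 normalized reads in TG 2, 5, 6 and 8, against 342, 495, 265 and 646 in WT 3, 4, 5 and 7. High and low libraries occurred in both groups, with a log2 fold change of -0.085 ± 0.308 (SE) and an adjusted p of 0.98 by limma. Without WT 7 the fold change turned to 0.13. Its order of libraries ran partly opposite to that of Steap4. TG 5, WT 5 and TG 6, the 3 highest for Steap4, were the 3 lowest for Steap2. TG 8, the lowest for Steap4, was above the mean for Steap2.

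Cybrd1, which uses ascorbate to reduce iron at the surface of absorptive cells, had nearly equal means in both genotypes. It had 307, 305, 229.7 and 174 normalized reads in TG 2, 5, 6 and 8, against 297, 239, 340.3 and 175 in WT 3, 4, 5 and 7. Its log2 fold change of -0.047 ± 0.285 (SE) had an adjusted p of 0.99 by limma. By sex, the 5 males had 239 to 340.3 (298 ± 36.6) and the 3 females 174 to 229.7 (193 ± 31.9, SD), with no overlap. WT 7 was the only WT female. With sex beside genotype, the log2 difference of males over females was 0.66 ± 0.26 (SE), with a 95% interval from 0.094 to 1.22, and it did not pass over all features (adjusted p = 1, limma). Cybrd1 was the only one of the 7 whose male and female libraries did not overlap, and this held for 3.20% of all features, 1.73% with males higher. The difference stayed between 0.57 and 0.76 when any 1 library was left out.

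**Figure D4:**
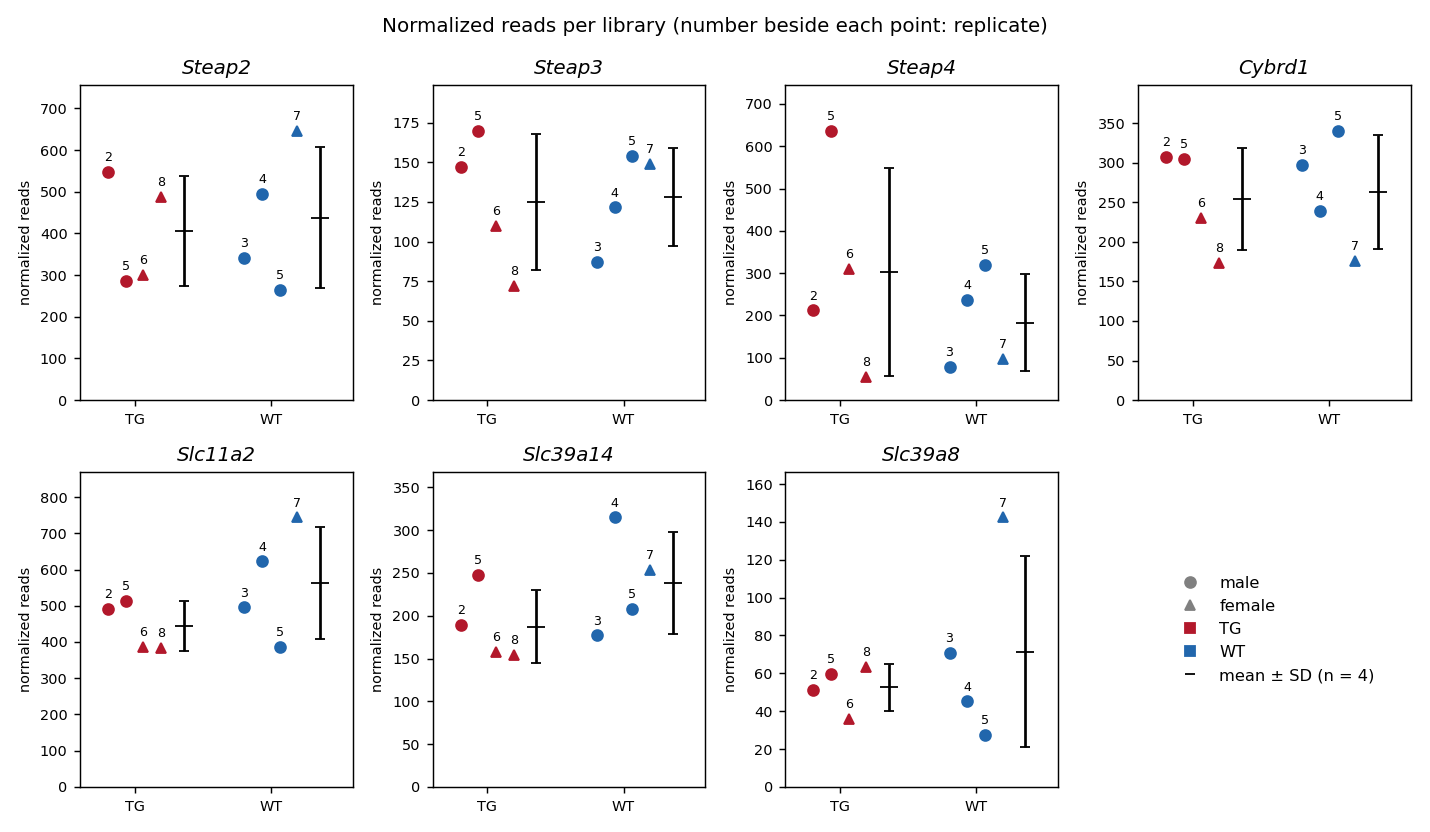
Normalized reads of each of the 7 genes in 8 libraries, TG (red) left of WT (blue), with circles for males, triangles for females, the replicate number at each point and the mean ± SD (n = 4) in black. The groups overlap in every panel. Steap4 spreads from 55.6 to 637 within TG alone, and the triangles lie below the circles only for Cybrd1.

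Slc11a2 carries ferrous iron and other divalent metals together with protons, out of the transferrin endosome in most cells. It had 491, 513, 385 and 383 normalized reads in TG 2, 5, 6 and 8, against 495, 622, 387 and 744 in WT 3, 4, 5 and 7. WT 4 and WT 7 stood above all TG libraries (the part of the cells marked in WT 4 was not tested), while WT 5 lay among the lower TG values. The means were 443 ± 68.7 in TG and 562 ± 155 in WT (SD, n = 4 each), and the log2 fold change of -0.31 ± 0.23 (SE; adjusted p = 0.92, limma) did not pass. Without WT 7 it was -0.16, and without WT 5 it was -0.48. With males only it was 0.029. WT 7 is the only WT female.

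An iron-responsive element, the hairpin that iron regulatory proteins bind when iron is scarce, is known in the Slc11a2 transcript, and its sequence is shown because Slc11a2 and Tfrc had the same highest pair and the same lowest trio of libraries. In the 3′ UTR of Tfrc, the transferrin receptor gene, such hairpins are known to keep the transcript from decay. They were searched as the loop CAGTGN on 5 base pairs and an unpaired C, with at most 1 more unpaired base in the 3′ arm and at least 4 of the next 5 bases paired. Of 21877 protein-coding genes, 42 (0.192%) held a match in a UTR. Among the 7 genes only Slc11a2 did, in 1 of its 6 protein-coding transcripts, and Tfrc held 4. The element of Slc11a2 (chr15:100395153-100395180, minus strand) and the first of Tfrc (chr16:32631220-32631246, plus strand) are printed 5′ to 3′ from GENCODE M21 transcripts (GRCm38), with the loop in capitals.
Slc11a2 element: gccatcagagcCAGTGTgtttctatggt
Tfrc element: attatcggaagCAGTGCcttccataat
The deposited values are per gene, so transcripts of Slc11a2 with and without the element could not be told apart. The part of the element in the values of either gene was not tested. Tfrc had 277, 128, 74.1 and 127 normalized reads in TG 2, 5, 6 and 8, against 259, 447, 94.1 and 714 in WT 3, 4, 5 and 7. WT 7 and WT 4 were the highest libraries for both genes, and TG 6, WT 5 and TG 8 the 3 lowest for both. Over all tested features, 578 (2.92%) had these libraries at both ends. The pattern was read from the values of these genes, so the share is a description. Tfrc did not pass either (log2 fold change -1.13 ± 0.55, SE; adjusted p = 0.92, limma).

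Those libraries also differed in how much long transcripts weighed against short ones. A length index was taken for each library as the median log2 deviation of 3837 genes with at least 6649 exonic bases minus that of 3838 genes with at most 2582. It was 0.23, -0.056, -0.38 and -0.22 in TG 2, 5, 6 and 8, against -0.032, 0.34, -0.25 and 0.36 in WT 3, 4, 5 and 7. The groups overlapped, with means of -0.11 ± 0.26 in TG and 0.10 ± 0.30 in WT (SD, n = 4 each). With the index as a term beside genotype, 5.90% of all features moved with it at an adjusted p under 0.05 (limma) and 0 of the 7 genes did. Per unit of the index, the log2 coefficient was 1.49 ± 0.47 for Steap2 (SE; adjusted p = 0.077, limma) and 1.05 ± 0.34 for Slc11a2 (adjusted p = 0.087). At an unadjusted p under 0.05 the index reached these 2 of 7 and 24.2% of all features. Tfrc, with 3.55 ± 0.55 per unit, passed (adjusted p = 0.0094, limma). The index was added after seeing the data and has the same libraries at both ends as Tfrc and Slc11a2. Their coefficients are therefore a description. With the term in place, the log2 fold change of TG over WT was -0.093 ± 0.179 for Slc11a2, 0.23 ± 0.25 for Steap2, -0.17 ± 0.26 for Slc39a14 and -0.39 ± 0.29 for Tfrc (SE). Steap2, Slc39a14 and Slc39a8, with 12144, 10550 and 7664 exonic bases, are themselves among the long genes. What sets the index was not tested.

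**Figure D5:**
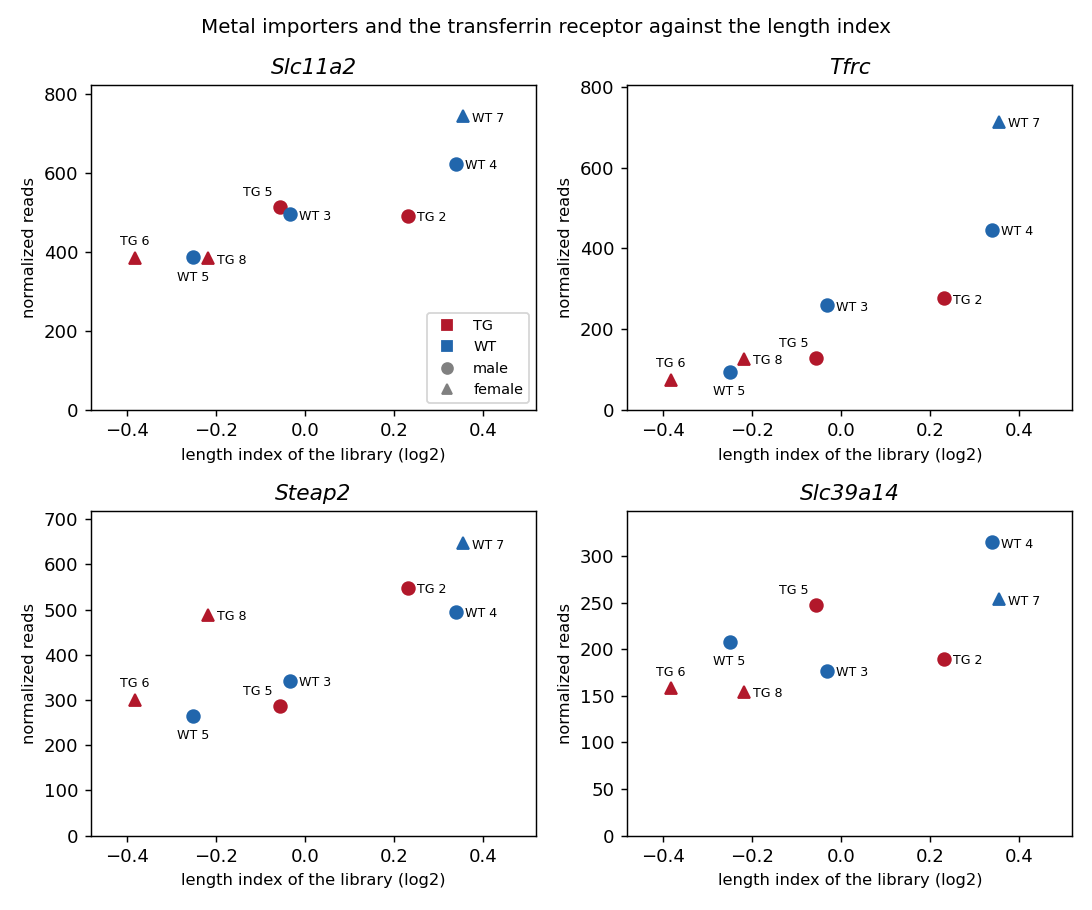
Normalized reads of Slc11a2, Tfrc, Steap2 and Slc39a14 on the vertical axes against the length index of each library on the horizontal axes (log2), with TG in red, WT in blue, circles for males and triangles for females. WT 7 and WT 4, at 0.36 and 0.34, hold the highest Slc11a2 and Tfrc values. TG 6, WT 5 and TG 8, at -0.38 to -0.22, hold the lowest.

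The Zip transporters were lower in TG on average without passing. Slc39a14, which imports iron not bound to transferrin as well as zinc and manganese, had 189.7, 247, 158 and 154 normalized reads in TG 2, 5, 6 and 8, against 177, 315, 208 and 253 in WT 3, 4, 5 and 7. TG 5 lay within the WT range while TG 6 and TG 8 lay below all WT libraries. Its means were 187 ± 43.1 in TG and 238 ± 59.9 in WT (SD, n = 4 each). The log2 fold change of -0.34 ± 0.28 (SE; adjusted p = 0.92, limma) was negative under every alternative run, but moved to -0.063 with males only, -0.17 with the length index as a term, -0.19 without WT 4 and -0.48 without TG 5.

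Slc39a8, a close relative that carries zinc, manganese and iron, was the lowest of the 7. It had 51.4, 59.9, 35.8 and 63.4 normalized reads in TG 2, 5, 6 and 8, against 70.6, 45.1, 27.5 and 142 in WT 3, 4, 5 and 7. The 4 TG values lay within the WT range, whose top was set by WT 7. Its log2 fold change of -0.21 ± 0.52 (SE) had an adjusted p of 0.97 by limma. Without WT 7 it was 0.21, with males only it was 0.31, and without both WT 3 and TG 6 it was 0.042. Features that overlap it without a symbol took a mean of at most 12.1 normalized reads, and 4933401H06Rik, which lies within it, took 0.

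Sex and eye side accounted for no call either. With genotype in the fit, 0 of 7 passed for males against females (background 0.0303%) and 0 of 7 for left against right eyes (background 0.00%) at an adjusted p under 0.05 (limma). At an unadjusted p under 0.05, 1 of 7 was reached for sex, which is Cybrd1 (background 3.23%), and 0 of 7 for eye side (background 3.70%). Left and right eyes did not overlap for 0 of 7 (background 2.98%). Steap4 averaged 297 ± 209 in the 5 males against 154 ± 137 normalized reads in the 3 females (SD), a log2 difference of 1.23 ± 0.62 (SE; adjusted p = 1, limma), which was 0.59 without TG 8 and 1.75 without TG 6. Steap2 had 498 ± 178 in the 3 left eyes and 375 ± 110 in the 5 right eyes, a log2 difference of 0.44 ± 0.32 (SE; adjusted p = 1, limma), which was 0.12 without WT 7 and 0.71 without TG 6.

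Nearest profiles over the 8 libraries were sought among 12592 genes with a mean of at least 50, by the root mean square difference of log2 values after each gene's own mean was subtracted. For Slc11a2 the nearest were Eif4g2, a translation initiation factor, and Ubqln4, a ubiquilin (differences of 0.076 and 0.080, where the profile itself has a size of 0.33). For Slc39a14 they were a feature labelled Heatr3 and Mir7071 (0.063) and Ice2 (0.12), against a size of 0.34. Steap2 lay nearest to Dlgap3, a postsynaptic scaffold gene, and Rmdn2 (0.13 and 0.14, size 0.46). Slc39a8 lay nearest to Gulp1, an engulfment adaptor gene, and B3glct (0.23 and 0.24, size 0.65). The neighbours of Steap4 were a feature labelled Csf2rb and Mir7676-2, a cytokine receptor subunit gene, and Tgm1, a transglutaminase gene (0.47 and 0.50, size 1.11). Csf2rb had 55.8, 157, 87.7 and 15.6 normalized reads in TG 2, 5, 6 and 8, against 47.1, 40.5, 104 and 27.3 in WT 3, 4, 5 and 7. Its highest and lowest library were those of Steap4, which follows from its being picked for nearness to Steap4. Over all tested features, 2.33% had TG 5 highest and TG 8 lowest. Cybrd1 lay nearest to Adamtsl4 and Fignl2 (0.15 and 0.16, size 0.35), and Steap3 to Spata2l and a feature labelled Mir6961 (0.14 and 0.17, size 0.41).

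The surroundings of each gene were counted within 1 Mb of its start. Around Slc39a14 on chromosome 14 (70303467 to 70351427, mm10), 5 of 38 tested features had an unadjusted p under 0.05 (13.2%, against 4.64% of all features) and 2 of 38 did not overlap between groups (5.26%, against 2.53% of all features). Among them was Gm16867, whose start lies 940.0 kb away. It was at 0 in all 4 TG libraries, against 3617, 3044, 3589 and 1981 normalized reads in WT 3, 4, 5 and 7 (adjusted p = 7e-09, limma). Slc39a14 itself did not pass. Around Slc11a2, 3 of 49 did not overlap (6.12%), among them Nckap5l (log2 fold change 0.63 ± 0.24, SE) and C330013E15Rik (0.73 ± 0.33), and around Steap2 1 of 12 (8.33%), Gtpbp10 (-1.93 ± 0.88). None of these 3 passed (adjusted p = 0.92 each, limma). Around Steap3, 3 of 16 had an unadjusted p under 0.05 (18.8%), and 0 of 16 did not overlap. Around Steap4, Cybrd1 and Slc39a8, 0 of 10, 0 of 16 and 0 of 15 met either measure.

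Genes that work beside these 7 did not pass either. Of 7 other ferrireductase and cytochrome b561 genes, 4 lay higher and 3 lower in TG, with 0 past the adjusted threshold (limma). Frrs1, a ferric reductase, had 36.8 ± 33.8 normalized reads in TG and 15.1 ± 18.6 in WT (SD, n = 4 each). Cyb561, which moves electrons across vesicle membranes, stood at a log2 fold change of 0.60 ± 0.59 and the lysosomal Cyb561a3 at -0.23 ± 0.31 (SE). Of 12 other Zip genes 11 were tested, 7 higher and 4 lower, and 0 passed. Slc39a7 releases zinc from the endoplasmic reticulum and shares its feature with H2-Ke6. It had 2852 ± 123 in TG and 2438 ± 152 in WT (SD, n = 4 each). Its groups did not overlap, which held for 1 of these 11 genes and for 2.53% of all features. At 0.23 ± 0.12 on the log2 scale (SE), it had an adjusted p of 0.92. Slc39a3 stood at 0.14 ± 0.12 and Slc39a10 at -0.58 ± 0.48.

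Most genes of the Slc30 family carry zinc or manganese out of the cytosol. Of 9 tested genes of this family, 8 had a log2 fold change below 0, with 0 past the adjusted threshold. Their median log2 fold change was -0.15, beside -0.017 for all features, of which 47.8% lay above 0. For Slc30a3 and Slc30a7 the group means differed by about 1 normalized read or less. Slc30a2 alone lay above 0, with 100.5 ± 45.9 normalized reads in TG and 49.2 ± 25.6 in WT (SD, n = 4 each; adjusted p = 0.92, limma). The manganese exporter Slc30a10 stood at -0.39 ± 0.34 and the plasma membrane zinc exporter Slc30a1 at -0.12 ± 0.14 (SE). Of 14 genes of Dmt1 regulation and iron delivery, 6 lay higher and 8 lower, and 0 passed. Fbxl5, which senses iron and marks an iron regulatory protein for decay, had 14203 ± 1312 in TG and 19927 ± 2973 in WT (SD, n = 4 each). Its groups did not overlap, which held for 1 of these 14 genes and for 2.53% of all features. At -0.48 ± 0.14 on the log2 scale (SE), Fbxl5 did not pass (adjusted p = 0.92, limma). Mcoln1, a lysosomal cation channel that releases iron, stood at 0.22 ± 0.14. In the cytokine response list, Il6st, the shared subunit of interleukin-6 type receptors, stood at -0.63 ± 0.32, Il6ra at 1.22 ± 0.95 and Stat3 at -0.37 ± 0.33 (SE), and none passed.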

How the data were processed

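Per the labels' protocols, total RNA of 8 mouse retinas was polyA selected and made into stranded Illumina libraries. What the authors deposited is a table of DESeq2-normalized reads on mm10 (GRCm38), a signal in which each read count was divided by its library's size factor. Tools named in the submitters' processing notes are STAR 2.4.0, SAMtools, Picard, FastQC and DESeq2. The sources used here name no counting tool, strand setting or annotation release, so reads of overlapping genes could not be told apart. Every column consisted of whole multiples of a step (100% of values fell within 0.01 of a whole number of reads), which gave back 61535690 to 75866423 reads per library. Between any pair of libraries the chi-square per feature was at least 46.1, so none was a near-copy of another.

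The members were tested with limma 3.58.1 (R 4.3.3) on log2(value + 1), with a trended prior variance, over all features with a mean of at least 10, with Benjamini-Hochberg adjustment over all of them and a threshold of 0.05. Fold changes on this scale understate the change of low genes. Alternatives were edgeR 4.0.16 and DESeq2 1.42.0 on the recovered reads, other scalings, pseudocounts and filters, sex, eye side or the length index as a term, subsets of the libraries, and leaving out each library. The limma fit was also run on simulated counts, and the outcome of that run is not given here. The length index and the subset of right eyes were added after seeing the data.

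Genes named in the text are the 7 members, up to 3 genes of each list with the smallest p, the 2 nearest profiles of each member (predicted genes, Riken clones, pseudogenes and features whose symbol is a number were left out), and features within 1 Mb of a member that had an unadjusted p under 0.05 and groups that did not overlap. Lcn2, Socs3, Cebpb, Cebpd, Lif, Ly6g, Slc30a3, Slc30a7 and the features overlapping Slc39a8 lie outside this rule and were picked with their values in view. Members and lists were chosen with earlier results of these data known.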

Additional observations from a re-analysis of the deposited data

How the results depend on the processing

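Under 22 alternatives for each of the 7 genes, 0 passed the adjusted threshold in the comparison of TG with WT, and the lowest adjusted p was 0.64 (Slc11a2 without WT 5). Directions were less stable. The log2 fold change of TG over WT turned positive with sex as a term for Steap3 (0.0084) and Cybrd1 (0.1177), and with eye side as a term for Cybrd1 (0.001). With males only it turned positive for Steap2 (0.1553), Steap3 (0.4224), Cybrd1 (0.0799), Slc11a2 (0.0286) and Slc39a8 (0.3128). With right eyes only it did so for Steap2 (0.0717) and Slc39a8 (0.4615). With the length index as a term it did so for Steap2 (0.2276), Steap3 (0.0426) and Slc39a8 (0.1014), and without both WT 3 and TG 6 for Cybrd1 (0.0607) and Slc39a8 (0.0423). The cause was not tested.

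When each library was left out in turn, the log2 fold change of TG over WT ranged from -0.2967 to 0.1305 for Steap2, from -0.2449 to 0.1642 for Steap3, from -0.0076 to 1.157 for Steap4, from -0.2259 to 0.1223 for Cybrd1, from -0.4776 to -0.1638 for Slc11a2, from -0.4812 to -0.1947 for Slc39a14 and from -0.5714 to 0.2057 for Slc39a8. The difference of males over females ranged from -0.6522 to 0.0495 for Steap2, from 0.5945 to 1.7511 for Steap4, from -0.1488 to 0.3847 for Slc11a2 and from -0.9659 to 0.2142 for Slc39a8. The difference of left over right eyes ranged from 0.1177 to 0.7148 for Steap2, from -0.0162 to 0.5597 for Steap3, from -1.0956 to 0.5485 for Steap4, from -0.4731 to 0.2056 for Cybrd1, from -0.0283 to 0.4004 for Slc11a2, from -0.1727 to 0.1643 for Slc39a14 and from -0.5115 to 0.756 for Slc39a8.

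Among all features, 1 was called higher and 1 lower in TG. The count of higher calls was 0 with a pseudocount of 0.5, with no filter on low values, with a minimum mean of 50, with sex as a term, with right eyes only and with the length index as a term, and 9 with DESeq2. The count of lower calls was 3 with males only and 7 with DESeq2. Leaving out each library gave 0 to 2 higher and 1 to 2 lower calls.

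The spread between libraries left a median standard error of 0.30 on the log2 scale over all features. Slc39a8, with as few as 26 reads in a library, also carries counting error. Scaling by TMM or the upper quartile shifted the median of all features by 0.002 and 0.01. No paired analysis was possible because no label pairs a TG retina with a WT retina.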
